A study of Homo sapiens with 16 samples.

Results

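MAGEA10, MOB3B, PSG4, HEPH, VAMP8, DHRS2, CSTA and SERPINF1 were followed across 4 stable lines of U2OS, a human osteosarcoma cell line that the labels class as sarcoma, because their RNA sets the line with hairpins against both PIP4K2A and PIP4K2B apart from the other lines. They are 8 of 60666 genes in the deposited tables, and all 8 were among the 22597 genes kept by the filter on low counts. They were chosen with their levels in these same libraries known. Every comparison of their levels between the double line and another line is therefore given as a description, with no test. The lines were shPIP4K2A/2B (double knockdown), shPIP4K2A, shPIP4K2B and plko.puro (empty vector), all kept in puromycin medium. Each line was either irradiated with UV-C at 30 J/m2 and collected after 6 h or left untreated, with 2 libraries in each of 8 groups.

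PIP4K2A and PIP4K2B are lipid kinases that turn phosphatidylinositol 5-phosphate into phosphatidylinositol 4,5-bisphosphate, a membrane lipid used in signalling and trafficking. The labels name no line with a non-targeting hairpin, and they do not say how many clones stand behind a line or whether replicates were separate cultures. Loss of a kinase, other effects of a hairpin and differences between stable lines thus cannot be told apart, and p-values measure the spread between these libraries, which may be technical. In bulk RNA, a smaller share of expressing cells and less RNA per cell cannot be told apart either.

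The genes do not belong to a single pathway. MAGEA10 encodes a cancer-testis antigen, a protein normally confined to germ cells and switched on in many tumours. PSG4 encodes a pregnancy-specific glycoprotein, a secreted immunoglobulin-like protein of the placenta. MOB3B belongs to a family of kinase-binding proteins whose other members act with LATS and NDR kinases in the Hippo pathway. HEPH encodes hephaestin, a copper-dependent ferroxidase that oxidises iron as it leaves the cell. VAMP8 is a SNARE protein that drives fusion of endosomes and autophagosomes with lysosomes. SERPINF1 encodes pigment epithelium-derived factor, a secreted serpin that restrains blood vessel growth. CSTA encodes cystatin A, a cytosolic inhibitor of cysteine cathepsins. DHRS2 encodes a short-chain dehydrogenase/reductase found in mitochondria and nucleus.

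The 15 libraries used held 28.0 to 39.9 M expected counts each. Empty-vector untreated replicate 1 was set aside: it held 1.28 M counts, and 14.574% of them were mitochondrial, against 2.202 to 3.434% elsewhere. That left 1 library of untreated empty-vector cells, whose spread is taken from the groups with replicates. The replicates of the UV-treated shPIP4K2A group stood further apart than those of other groups, with 2.03% of genes at a mean of 5 CPM or more over 2-fold apart, against at most 0.321% in the other groups with 2 libraries. Levels are CPM, counts scaled to library size after TMM correction for library composition. The targets fitted the labels. PIP4K2A stood at 10.1 to 20.5 CPM in the double line and 7.91 to 15.8 in the shPIP4K2A line, against 49.5 to 55.9 in the shPIP4K2B line and 55.0 to 61.1 with empty vector. PIP4K2B stood at 12.8 to 17.3 CPM in the double line and 16.6 to 24.6 in the shPIP4K2B line, against 68.8 to 88.1 in the shPIP4K2A line and 83.3 to 97.0 with empty vector. PIP4K2C, the third kinase of the family, had 123 and 127 CPM in the double line after UV, against 60.3 to 91.5 in the other lines, and 89.8 and 96.6 untreated, against 51.5 to 72.0.

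The 5 genes MAGEA10, MOB3B, PSG4, HEPH and VAMP8 were higher in the double line than in each other line, and DHRS2, CSTA and SERPINF1 were lower. Within each treatment all 8 had double-line libraries outside the range of every other line. The share of all genes that do so within a treatment was not counted, and the genes were chosen on these contrasts, so nothing is read from it. Over both treatments the 4 double-line libraries lay outside the range of the other 11 for 6 of the 8 genes, beside 3.89% of all genes tested (2.35% above and 1.54% below); since the genes were chosen on these contrasts, nothing is read from that share. The exceptions were VAMP8, which overlapped the shPIP4K2A line, and SERPINF1, which overlapped both single lines.

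**Figure D1:**
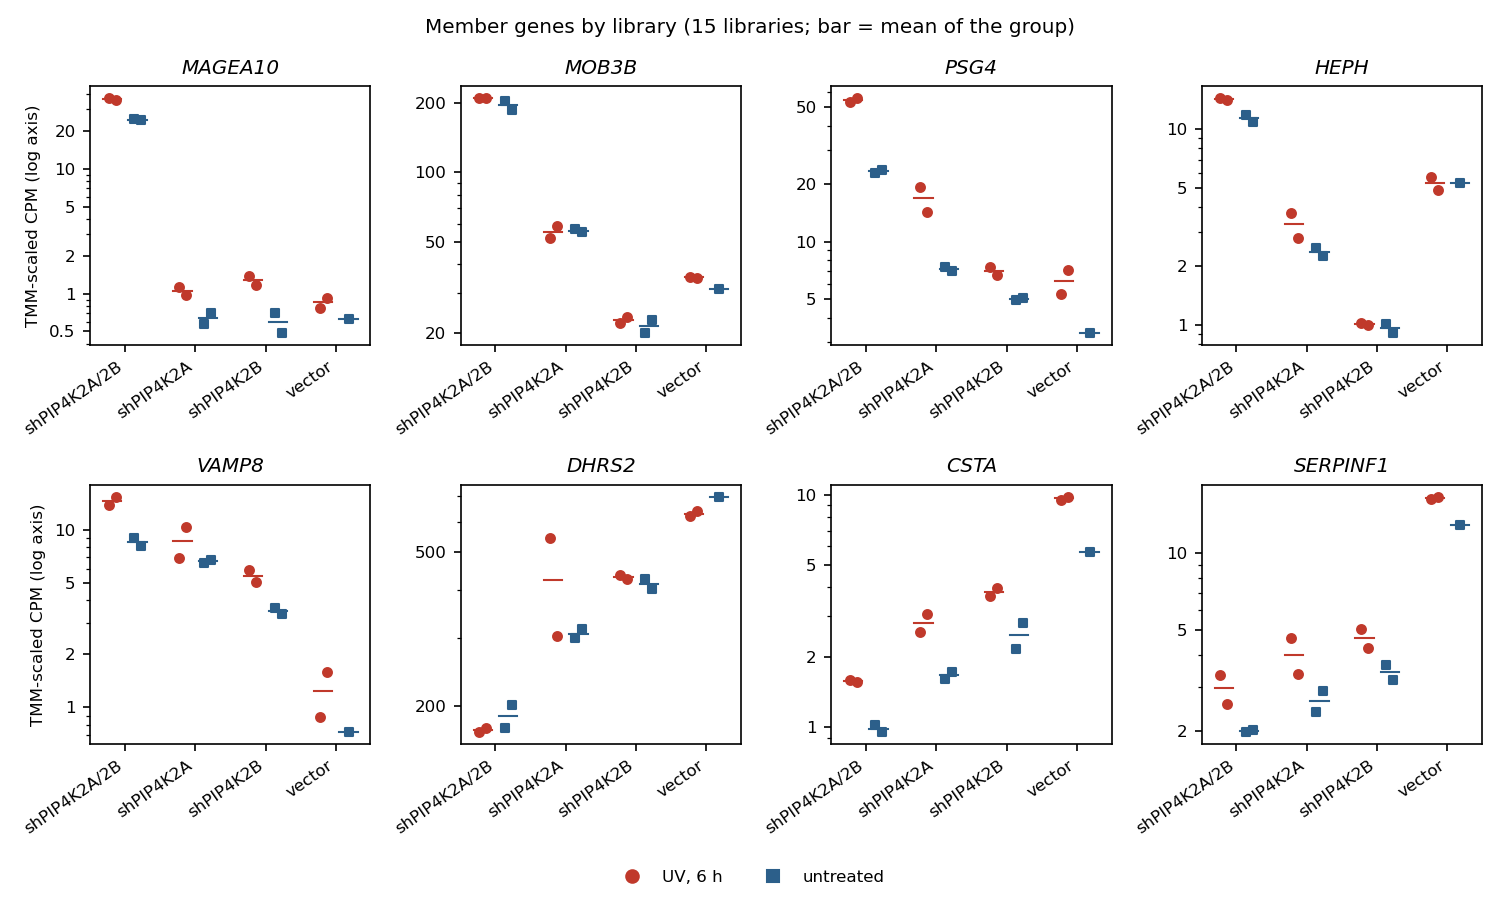
Level of each gene in the 15 libraries, as TMM-scaled CPM on a log axis, by line and treatment; points are libraries and bars are group means. MAGEA10 shows the widest gap, at 24.8 to 37.2 CPM in the double line against 0.487 to 1.40 CPM in the other 11 libraries, whereas SERPINF1 in the double line overlaps both single lines.

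MAGEA10 (ENSG00000124260, GRCh38 chrX:152133310-152138578, minus strand) had 37.2 and 35.6 CPM in the double line after UV and 25.0 and 24.8 CPM untreated. In UV-treated cells it had 1.13 and 0.983 CPM in the shPIP4K2A line, 1.40 and 1.18 in the shPIP4K2B line and 0.777 and 0.933 with empty vector. Untreated, the shPIP4K2A line had 0.573 and 0.704 CPM, the shPIP4K2B line 0.702 and 0.487 and the empty vector 0.633. The gene was thus close to silent in 3 lines and present in 1. Its log2 fold change of the double line lay between 4.81 and 5.42 over 6 contrasts (against empty vector, shPIP4K2A and shPIP4K2B, untreated and after UV). Neither single line stood apart from empty vector when untreated, with log2 differences of 0 in the shPIP4K2A line and -0.08 in the shPIP4K2B line.

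MAGEA4, another cancer-testis gene 208 kb from MAGEA10 on the X chromosome, was not used to choose the genes and rose in all 6 contrasts by edgeR's quasi-likelihood test with Benjamini-Hochberg adjustment over all genes. It had 254 and 259 CPM in the double line after UV, against 141 and 143 in the shPIP4K2A line, 96.0 and 96.9 in the shPIP4K2B line and 127 and 118 with empty vector. Untreated it had 146 and 152 CPM in the double line, against 93.0 and 94.8, 69.6 and 64.5, and 88.6 in the same order. The double-line libraries lay above every other library of their treatment. The log2 fold changes ran from 0.67 ± 0.0755 (adjusted p = 0.000189, untreated, against shPIP4K2A) to 1.41 ± 0.0764 (SE, adjusted p = 1.75e-07, after UV, against shPIP4K2B). GABRA3, a receptor gene 27.7 kb from MAGEA10 on its other side, had log2 fold changes of -0.25 to -0.14 and was called in none of the 6. A transcript annotated as a readthrough of MAGEA10 and MAGEA5 overlaps MAGEA10 and shares 13.9% of its 50-base words, so how the authors' counting split reads between them is uncertain. The overlapping transcript averaged 0.336 CPM in the double line and 0.00819 in the other 11 libraries, and was called up in 3 contrasts. MAGEA5P, a pseudogene 17.8 kb away, averaged 0.184 and 0.00923 CPM and was called in none.

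The wider list of cancer-testis genes did not move one way. Of 22 kept genes, 1, 3 and 7 rose and 4, 1 and 2 fell in untreated double-line cells against empty vector, shPIP4K2A and shPIP4K2B, where 6.2%, 7.1% and 15.4% of all genes were called (3.24%, 3.53% and 7.32% up and 2.96%, 3.57% and 8.06% down). After UV, 1, 3 and 6 rose and 5, 1 and 2 fell, where 15.4%, 19.5% and 17.7% of all genes were called (8.5%, 9.81% and 8.64% up and 6.86%, 9.71% and 9.09% down). The lists that follow are read against the same shares, with counts in the same order of contrasts. Of 131 calls of the genes named from these lists, 56 were lost when 1 library was left out. The list median lay between -0.09 and 0.26 on the log2 scale, beside -0.02 to 0 for all genes; ribosomal protein scaling moves that median to 0.25, -0.05 and 0.09 untreated and 0.1, -0.13 and 0.13 after UV, and no named gene of the lists changed sign with it, though 13 of 131 calls were lost: STK4 in 3 contrasts (adjusted p 0.106 to 0.166), CYBRD1 in 2 (0.0788 and 0.058), and CTSB (-0.15, 0.486), STX17 (0.0514), VAMP5 (0.0919), MOB2 (0.0814), DHRS11 (0.0873), ERVW-1 (0.0535), KRT7 (0.0653) and RUNX2 (0.223) in 1 each (edgeR). CTAG2, which encodes the antigen LAGE-1, had 0.74 to 1.60 CPM in the double line and 0 to 0.0356 CPM in the shPIP4K2B line, with adjusted p = 0.000374 untreated and 0.000214 after UV by edgeR. Against empty vector, where it had 0.633 to 1.38 CPM, it was not called. PAGE5 was at 0 in all 4 double-line libraries and at 0 to 0.0945 CPM in the single lines, against 0.316 to 0.777 CPM with empty vector (adjusted p = 0.0353 untreated, 0.149 at most without 1 library, and 0.00419 after UV). PAGE1 had 0.277 to 0.765 CPM in the double line, against 0 to 0.145 in the single lines and 0.57 to 1.0 with empty vector, and rose against both single lines (adjusted p of at most 0.0184, and up to 0.107 without 1 library).

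PSG4 (ENSG00000243137, chr19:43192702-43207299, minus strand) had 53.4 and 56.1 CPM in the double line after UV and 22.8 and 23.7 CPM untreated. In UV-treated cells it had 19.3 and 14.3 CPM in the shPIP4K2A line, 7.39 and 6.73 in the shPIP4K2B line and 5.36 and 7.15 with empty vector. Untreated, the levels were 7.37 and 7.01 in the shPIP4K2A line, 4.97 and 5.06 in the shPIP4K2B line and 3.35 with empty vector. The order double, shPIP4K2A, shPIP4K2B, empty vector held untreated with no overlap, while after UV shPIP4K2B and empty vector overlapped. The log2 fold change of the double line lay between 1.69 and 3.14 over the 6 contrasts.

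PSG4 lies in a cluster of closely related genes on chromosome 19. Its relatives PSG5, PSG3 and, at a low level, PSG8 were also highest in the double line. PSG8 averaged 0.439 CPM in the double line and 0.13 in the other 11 libraries. Its 4 double-line libraries lay above the other 11, with a log2 fold change of at least 1.29 in the 6 contrasts, but it was not called. PSG5, 6.17 kb away, had 11.5 and 13.4 CPM in the double line after UV, against 3.84 and 2.37 in the shPIP4K2A line, 1.91 and 1.60 in the shPIP4K2B line and 1.66 and 1.87 with empty vector. Its log2 fold changes ran from 1.85 to 2.83 and it was called in all 6 contrasts, with adjusted p of at most 0.000607 (edgeR). PSG3 stood at 1.05 to 2.57 CPM in the double line against 0.0346 to 0.536 CPM in the other 11 libraries, and was also called in all 6. PSG3 lost its untreated call against shPIP4K2A without double-line replicate 2 (adjusted p = 0.201) or either shPIP4K2A library (0.116 and 0.091). Against shPIP4K2B untreated it lost the call without replicate 2 of either line (0.0726 without the double-line library and 0.0617 without the shPIP4K2B one). PSG9, 4.49 kb on the other side of PSG4, differed: it had 3.95 to 5.14 CPM in the double line, within the 2.98 to 7.02 CPM of both single lines, and rose only against the 1.31 to 1.58 CPM of empty vector, by 1.46 untreated and 1.85 after UV on the log2 scale. Of the 15 genes on the pregnancy-specific glycoprotein and CEACAM list, 7 were kept; 3, 2 and 2 of these rose untreated and 3, 2 and 2 after UV, and none was called down. The authors' counting may split reads between these genes, since PSG4 shares 15.5% of its 50-base words with other genes and 2.57% with PSG5.

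**Figure D2:**
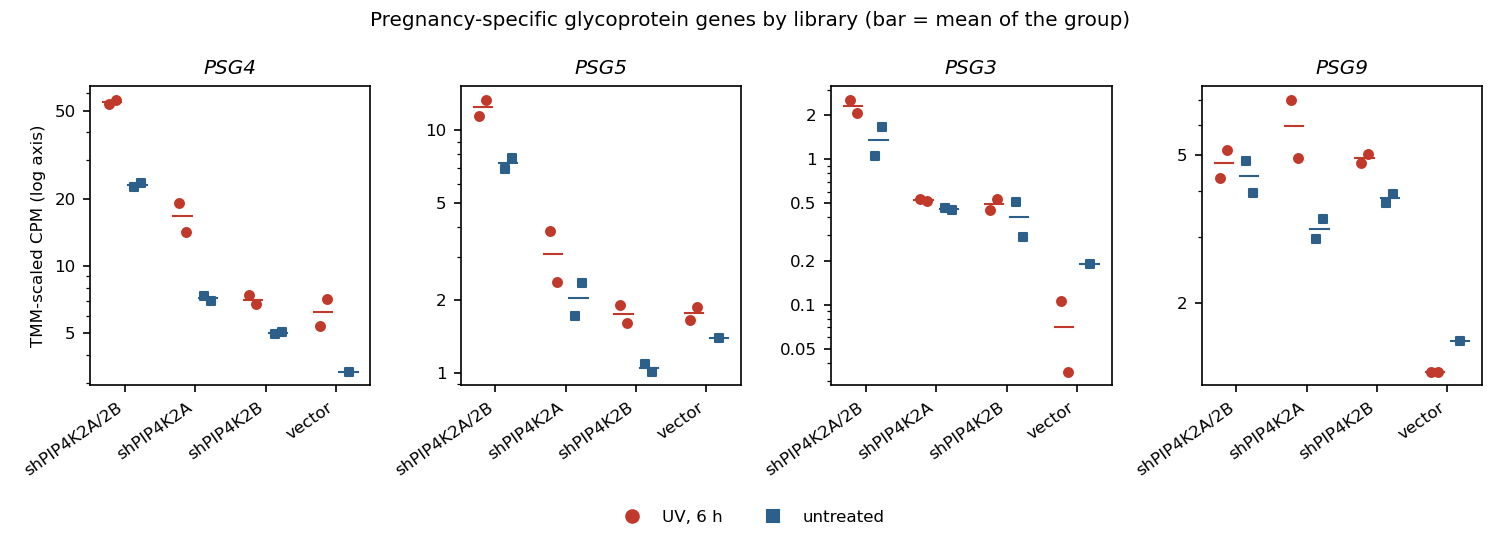
Level of 4 pregnancy-specific glycoprotein genes in the 15 libraries, as TMM-scaled CPM on a log axis, by line and treatment; points are libraries and bars are group means. PSG4, PSG5 and PSG3 lie above every library of the other lines within each treatment, while PSG9 in the double line lies among the single lines.

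Because PSG4, PSG5 and PSG3 were all highest in the double line, the 300 bases around their annotated starts (RefSeq, GRCh38.p14, minus strand) are set out here. Capitals mark a GC box (GGGCGG or its complement).

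PSG4, chr19:43205589-43205888: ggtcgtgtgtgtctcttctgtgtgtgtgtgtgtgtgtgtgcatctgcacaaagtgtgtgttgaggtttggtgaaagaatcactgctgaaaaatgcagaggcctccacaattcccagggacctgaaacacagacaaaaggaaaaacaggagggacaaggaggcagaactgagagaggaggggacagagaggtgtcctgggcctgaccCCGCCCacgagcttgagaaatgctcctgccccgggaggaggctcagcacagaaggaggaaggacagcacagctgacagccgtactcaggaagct

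PSG5, chr19:43186487-43186786: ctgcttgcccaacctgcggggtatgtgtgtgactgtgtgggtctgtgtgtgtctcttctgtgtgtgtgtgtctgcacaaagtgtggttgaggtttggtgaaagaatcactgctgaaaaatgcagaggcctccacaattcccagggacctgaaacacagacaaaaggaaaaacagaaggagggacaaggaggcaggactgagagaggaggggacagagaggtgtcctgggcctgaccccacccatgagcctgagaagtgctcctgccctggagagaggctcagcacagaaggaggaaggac

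PSG3, chr19:42740432-42740731: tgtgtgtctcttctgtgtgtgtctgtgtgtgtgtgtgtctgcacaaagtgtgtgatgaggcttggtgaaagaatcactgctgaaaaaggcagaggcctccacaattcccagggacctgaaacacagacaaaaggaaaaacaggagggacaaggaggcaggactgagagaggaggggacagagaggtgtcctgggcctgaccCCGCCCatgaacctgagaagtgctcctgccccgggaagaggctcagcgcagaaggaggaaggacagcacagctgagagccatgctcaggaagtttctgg

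The PSG4 window was 91.1% identical to that of PSG3 and 76.4% to that of PSG5 by global alignment, against 43.9 to 44.6% to the windows of MOB3B, VAMP8 and DHRS2. Identity was taken over the whole alignment with unmatched ends counted. The PSG5 window begins and ends at other points of the shared sequence than that of PSG4. Its 76.4% is therefore not a measure of divergence alone. GGGCGG on either strand was found once in PSG4 and PSG3 and not in PSG5, and 45.0% of 35116 RefSeq windows of this length hold it. The windows held 5, 1 and 3 CG dinucleotides in PSG4, PSG5 and PSG3, where the median window holds 14. The TATA box TATAAA, the AP-1 motif TGANTCA, the E-box CACGTG and the ETS core CCGGAA, searched on both strands and counted whether or not matches overlap, were in none of the 3 windows; 11.5%, 7.71%, 7.26% and 17.2% of all windows hold them.

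MOB3B (ENSG00000120162, chr9:27325209-27529781, minus strand) averaged 29.6 TPM, a per-length scale, in untreated double-line cells, above the 14.9 TPM of VAMP8, the next of the genes high in that line. It had 211 and 210 CPM in the double line after UV and 205 and 186 untreated. In UV-treated cells it had 51.9 and 58.4 CPM in the shPIP4K2A line, 22.2 and 23.5 in the shPIP4K2B line and 35.1 and 34.9 with empty vector. Untreated, it had 56.8 and 54.9, 20.1 and 22.8, and 31.1 CPM in the same order. The 4 lines did not overlap, with shPIP4K2A above and shPIP4K2B below empty vector, and the double line stood 1.81 to 3.21 above each on the log2 scale. Among 15 genes for MOB proteins and Hippo or NDR kinases, 3, 0 and 2 rose and 0, 1 and 1 fell untreated, and 4, 2 and 1 rose and 0, 1 and 2 fell after UV. STK38, which encodes the NDR1 kinase, rose against empty vector and shPIP4K2B (log2 0.46 to 0.63, adjusted p of at most 0.0235, edgeR); against empty vector untreated it lost the call without double-line replicate 1 (0.105) or 2 (0.0905). LATS2, a kinase at the core of the Hippo pathway, rose against empty vector by 0.42 untreated, a call lost without 1 library, and by 0.54 after UV (0.00151). It was not called against either single line. After UV it had 45.7 and 43.4 CPM in the double line, 46.1 and 43.8 in shPIP4K2A and 40.4 and 40.8 in shPIP4K2B. With empty vector it then had 29.6 and 31.9 CPM. MOB2, a regulator of NDR kinases, rose after UV against empty vector (0.56, 0.0395) and shPIP4K2A (0.52, 0.0444), with calls lost without 1 library (up to 0.204) and by DESeq2 (0.0818 and 0.104). STK4, which encodes the MST1 kinase, stood at 107 to 115 CPM in the double line, against 133 to 172 in the 8 single-line libraries and 105 to 137 with empty vector. It fell against both single lines, by 0.39 and 0.44 untreated and 0.58 and 0.45 after UV on the log2 scale (adjusted p of at most 0.0253, edgeR). The untreated call against shPIP4K2A was lost without double-line replicate 1 (0.117) or 2 (0.186) or shPIP4K2A replicate 1 (0.206). The untreated call against shPIP4K2B was lost without double-line replicate 2 (0.0708) or shPIP4K2B replicate 1 (0.0999), and the one after UV without double-line replicate 1 (0.0693) or 2 (0.051) or shPIP4K2B replicate 1 (0.0532). None of the 6 nearest kept genes around MOB3B was called in more than 1 contrast.

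The start region of MOB3B is shown because MOB3B had the highest per-length level of the genes high in untreated double-line cells, with CCGGAA, an ETS core, in capitals as its complement (RefSeq, GRCh38.p14, minus strand).

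MOB3B, chr9:27529765-27530064: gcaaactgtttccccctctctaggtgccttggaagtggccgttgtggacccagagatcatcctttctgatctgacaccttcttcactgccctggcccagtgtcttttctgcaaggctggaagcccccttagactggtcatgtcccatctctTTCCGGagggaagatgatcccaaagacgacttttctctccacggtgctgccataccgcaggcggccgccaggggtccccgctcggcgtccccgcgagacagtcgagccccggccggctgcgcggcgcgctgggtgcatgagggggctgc

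It held 19 CG dinucleotides at 62.7% GC, beside medians of 14 and 58.7% over all windows.

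HEPH (ENSG00000089472, chrX:66162549-66268867, plus strand) had 14.5 and 14.1 CPM in the double line after UV and 11.9 and 10.9 untreated. In UV-treated cells it had 3.75 and 2.77 CPM in the shPIP4K2A line, 1.02 and 0.997 in the shPIP4K2B line and 5.73 and 4.91 with empty vector. Untreated, it had 2.48 and 2.24, 1.01 and 0.909, and 5.32 CPM in the same order. The single lines lay below empty vector and the double line above it. The log2 values against untreated empty vector were 1.10 for the double line, -1.17 for shPIP4K2A and -2.46 for shPIP4K2B. MSN, which encodes moesin and is the nearest kept gene on one side at 421 kb, was called in none of the 6 double-line contrasts.

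Among 19 other kept genes for iron and copper handling, 1, 1 and 3 rose and 1, 2 and 2 fell untreated, and 5, 4 and 5 rose and 2, 2 and 3 fell after UV. Median log2 fold changes lay between 0.06 and 0.26. HEPHL1, the ferroxidase most like hephaestin, was at 1.08 to 1.42 CPM in the double line, against 2.47 to 4.28 in the 8 single-line libraries and 0.665 to 0.965 with empty vector. It fell against shPIP4K2A (log2 -1.48 untreated and -1.57 after UV) and against shPIP4K2B (-1.18 and -1.28), with adjusted p of at most 0.00179 (edgeR), and was not called against empty vector. HFE, whose protein acts in sensing iron, had 0.173 to 0.278 CPM in the double line, against 1.05 to 1.92 in the single lines and 0.0536 to 0.316 with empty vector. It fell against both single lines, with log2 fold changes of -2.85 to -2.51 and adjusted p of at most 0.00088. STEAP3, an endosomal ferrireductase, rose against both single lines by 0.62 to 0.82 and was not called against empty vector. Its untreated call against shPIP4K2A was lost without shPIP4K2A replicate 1 (adjusted p = 0.0852, edgeR) or double-line replicate 2 (0.108). CYBRD1, a ferric reductase of the plasma membrane, had 73.7 and 73.8 CPM in the double line after UV, against 39.6 and 51.6 in the shPIP4K2A line, 35.2 and 35.3 in the shPIP4K2B line and 55.1 and 55.0 with empty vector. It rose after UV against all 3 lines and untreated against shPIP4K2B (log2 0.42 to 1.07), and the call against empty vector was lost without any of 4 libraries (up to 0.154).

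VAMP8 (ENSG00000118640, chr2:85561562-85582031, plus strand) separated all knockdown lines from empty vector rather than the double line alone. It had 13.8 and 15.3 CPM in the double line after UV and 8.98 and 8.11 untreated. After UV it had 6.93 and 10.3 CPM in the shPIP4K2A line, 5.93 and 5.09 in the shPIP4K2B line and 0.884 and 1.59 with empty vector. Untreated, it had 6.52 and 6.78, 3.62 and 3.34, and 0.728 CPM in the same order. The double line lay above shPIP4K2A by 0.36 untreated and 0.75 after UV on the log2 scale, and above empty vector by 3.55 and 3.58. With the set-aside library included, the untreated value against empty vector was 2.36. GGCX and VAMP5, the nearest kept genes on either side at 0.015 and 2.38 kb, were called in 0 and 1 of the 6 contrasts (VAMP5 against shPIP4K2A after UV, adjusted p = 0.0213, up to 0.126 without 1 library), and MAT2A, 16.3 kb away, was called down in 3. Among 19 other genes of endosomal and lysosomal SNAREs and their binding proteins, 1, 1 and 1 rose and 0, 1 and 1 fell untreated, and 2, 2 and 4 rose and 0, 0 and 1 fell after UV. STX17, the autophagosomal partner of VAMP8, had 41.8 and 41.4 CPM in the double line after UV, against 33.9 and 38.4 in the shPIP4K2A line, 32.6 and 31.6 in the shPIP4K2B line and 30.7 and 29.9 with empty vector. It rose by 0.46 against empty vector (adjusted p = 0.00941) and 0.38 against shPIP4K2B (0.023), and both calls were lost when any of the 4 libraries compared was left out, with adjusted p of 0.0677 to 0.0791 and 0.111 to 0.165. STX6, a SNARE of the trans-Golgi and endosomes, rose against empty vector by 0.46 untreated (0.0328, 0.189 at most without 1 library) and 0.60 after UV (0.000889), and against shPIP4K2B after UV by 0.34 (0.0216, 0.176). VAMP2, a SNARE of secretory vesicles, fell against shPIP4K2B (-0.57 untreated and -0.47 after UV) and untreated against shPIP4K2A (-0.40, adjusted p = 0.0214, 0.134 at most without 1 library, edgeR). The call after UV was lost without double-line replicate 2 (0.0529), and VAMP2 was not called against empty vector.

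DHRS2 (ENSG00000100867, chr14:23630115-23645639, plus strand) had the highest per-length level of the 8 genes in every group, at 51.7 TPM in the double line after UV and 123 to 181 TPM in the other lines. It had 171 and 175 CPM in the double line after UV and 175 and 201 untreated. After UV it had 545 and 303 CPM in the shPIP4K2A line, 435 and 426 in the shPIP4K2B line and 620 and 639 with empty vector. Untreated, it had 299 and 316, 427 and 401, and 696 CPM in the same order. Both single lines lay between the double line and empty vector. The replicates of the UV-treated shPIP4K2A group disagreed, so that the log2 difference of the double line from that group was -1.30, but -0.79 without its replicate 1 and -1.66 without its replicate 2. Against untreated empty vector the value was -1.89, and -1.14 with the set-aside library included.

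JPH4, which encodes a junctophilin and lies 51.3 kb from DHRS2, fell in 5 of 6 contrasts. It had 47.8 and 46.1 CPM in the double line after UV, against 75.3 and 59.0 in the shPIP4K2A line, 70.9 and 68.8 in the shPIP4K2B line and 137 and 145 with empty vector. Its log2 fold changes ran from -1.59 to -0.36; the call after UV against shPIP4K2A was lost without double-line UV replicate 2 (-0.47, adjusted p = 0.0557). DHRS4 and DHRS4L2, short-chain dehydrogenase genes about 308 and 324 kb away, were called in none of the 6. Of 10 other kept genes of the DHRS group, 0 were called untreated in each contrast (0, 1 and 1 at an unadjusted p under 0.05 by edgeR, and 0 by DESeq2), and after UV 2, 3 and 1 rose and 0 fell. DHRS7 had 38.8 and 40.7 CPM in the double line after UV, against 23.2 and 27.4 in the shPIP4K2A line, 26.3 and 28.4 in the shPIP4K2B line and 40.5 and 39.3 with empty vector. It rose against shPIP4K2A (0.65, adjusted p = 0.0011) and shPIP4K2B (0.54, 0.00297). DHRS13 rose after UV against empty vector (1.06, 0.00915) and shPIP4K2A (0.84, 0.0241), DHRS1 against empty vector (0.68, 0.0216) and DHRS11 against shPIP4K2A (0.45, 0.00763), and each of these calls was lost without at least 1 library (up to 0.139, 0.178 and 0.0506 for DHRS13, DHRS1 and DHRS11).

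DHRS2 is shown as the gene whose start region holds a TATA box, TATAAA in capitals (RefSeq, GRCh38.p14, plus strand).

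DHRS2, chr14:23629865-23630164: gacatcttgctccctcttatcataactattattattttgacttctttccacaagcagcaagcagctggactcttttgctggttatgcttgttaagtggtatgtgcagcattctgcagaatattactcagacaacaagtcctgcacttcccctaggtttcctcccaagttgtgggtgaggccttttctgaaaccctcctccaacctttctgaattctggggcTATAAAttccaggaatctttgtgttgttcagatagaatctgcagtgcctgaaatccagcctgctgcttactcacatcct

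It held 0 CG dinucleotides at 44.0% GC. For VAMP8, which was higher in each knockdown line than with empty vector, the window (plus strand) held a GC box in capitals and 9 CG dinucleotides.

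VAMP8, chr2:85577336-85577635: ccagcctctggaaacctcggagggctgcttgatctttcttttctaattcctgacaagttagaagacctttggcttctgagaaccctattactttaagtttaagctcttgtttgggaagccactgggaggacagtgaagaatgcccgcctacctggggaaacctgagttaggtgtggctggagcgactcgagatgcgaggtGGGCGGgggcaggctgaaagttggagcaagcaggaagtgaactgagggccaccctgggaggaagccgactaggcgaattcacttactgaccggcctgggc

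Of the 8 genes, 5 matched the RefSeq table; HEPH had 3 windows, none with a match to the 5 motifs. MAGEA10, SERPINF1 and CSTA were not matched.

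CSTA (ENSG00000121552, chr3:122325244-122341972, plus strand) had 1.59 and 1.56 CPM in the double line after UV and 1.02 and 0.956 untreated. After UV it had 2.58 and 3.06 CPM in the shPIP4K2A line, 3.66 and 3.95 in the shPIP4K2B line and 9.48 and 9.78 with empty vector. Untreated, it had 1.61 and 1.73, 2.16 and 2.82, and 5.66 CPM in the same order. The levels kept the order double, shPIP4K2A, shPIP4K2B, empty vector in both treatments with no overlap. The double line held 31 to 46 expected counts of CSTA per library, which limits the precision. Against untreated empty vector the log2 value was -2.51, and -1.84 with the set-aside library included. Of 16 other kept cystatin and cathepsin genes, 0, 1 and 1 rose and 2, 2 and 2 fell untreated, and 1, 2 and 3 rose and 1, 2 and 2 fell after UV. CTSL, which encodes cathepsin L, a protease that cystatin A inhibits, had 181 and 176 CPM in the double line after UV and 122 and 129 untreated. In the single lines it had 84.1 to 114 CPM after UV and 54.7 to 69.3 untreated, and with empty vector 149 and 133 after UV and 98.9 untreated. It rose against both single lines (log2 0.82 to 1.13, adjusted p of at most 0.000411, edgeR) and was not called against empty vector. CST1, a secreted cystatin, had 0 to 0.0347 CPM in the double line (0 to 1 expected counts per library). It had 0.546 to 2.77 CPM in the single lines and 0 to 0.138 with empty vector. It fell against both single lines with adjusted p of at most 0.00105 (edgeR), and was not called against empty vector. CTSB, which encodes cathepsin B, had 165 and 167 CPM in the double line untreated, against 210 and 234 in the shPIP4K2A line, 269 and 295 in the shPIP4K2B line and 221 with empty vector. It fell in all 3 untreated contrasts (-0.41, -0.42 and -0.76) and after UV against shPIP4K2B (-0.68), and the untreated calls against empty vector and shPIP4K2A were lost without either double-line library (up to 0.137 and 0.0683). CST7, an endosomal cystatin, fell in 3 contrasts (log2 -1.65 to -0.94), each lost without at least 1 library (up to 0.155), and DESeq2 called none of the 3 (0.0624 to 0.123).

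SERPINF1 (ENSG00000132386, chr17:1761959-1777574, plus strand) had 3.33 and 2.57 CPM in the double line after UV and 1.99 and 2.03 untreated. After UV it had 4.66 and 3.35 CPM in the shPIP4K2A line, 5.07 and 4.27 in the shPIP4K2B line and 16.4 and 16.7 with empty vector. Untreated, it had 2.38 and 2.88, 3.65 and 3.18, and 12.9 CPM in the same order. It was low in all 3 knockdown lines, and the double line lay below shPIP4K2A by 0.38 untreated and 0.44 after UV on the log2 scale. On the per-length scale the untreated order did not hold: SERPINF1 averaged 2.60 TPM in the double line, against 2.08 in the shPIP4K2A line, 2.43 in the shPIP4K2B line and 8.84 with empty vector. The deposited length of the gene, an average of its isoforms weighted by their abundance, reached down to 810 bases in double-line cells. SERPINF2, 6.69 kb away, was called in none of the 6 contrasts. Of 14 other kept serpins, 1, 3 and 2 rose and 1, 4 and 2 fell untreated, and 3, 3 and 2 rose and 2, 5 and 3 fell after UV. SERPINE2, which encodes the protease inhibitor nexin-1, fell in all 6 contrasts, at 61.2 to 69.9 CPM in the double line against 81.2 to 151 in the other 11 libraries (log2 -1.14 to -0.41, adjusted p of at most 0.00455, edgeR). SERPING1, which encodes the C1 inhibitor, rose in 5 of 6 contrasts by 0.62 to 1.07. Of these, 4 lost the call when 1 library was left out, the one against shPIP4K2B after UV being the exception; the highest adjusted p was 0.23, untreated against shPIP4K2A without double-line replicate 1, and after UV the value against shPIP4K2A was 0.33 without shPIP4K2A replicate 2. SERPINB9, an inhibitor of granzyme B, fell after UV against empty vector (-2.64, adjusted p = 0.0011, edgeR). It had 0.243 CPM in each double-line library after UV (7 expected counts), against 1.58 and 1.49 with empty vector. The single lines were low as well, at 0.378 and 0.665 CPM in shPIP4K2A and 0.51 and 0.677 in shPIP4K2B. The double line was not called against either of them. SERPINA3, an acute-phase inhibitor, fell after UV against shPIP4K2A (-1.20, 0.022) and shPIP4K2B (-1.27, 0.017), with both calls lost without 1 library (up to 0.194 and 0.163) and the first by DESeq2 (0.0578).

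**Figure D3:**
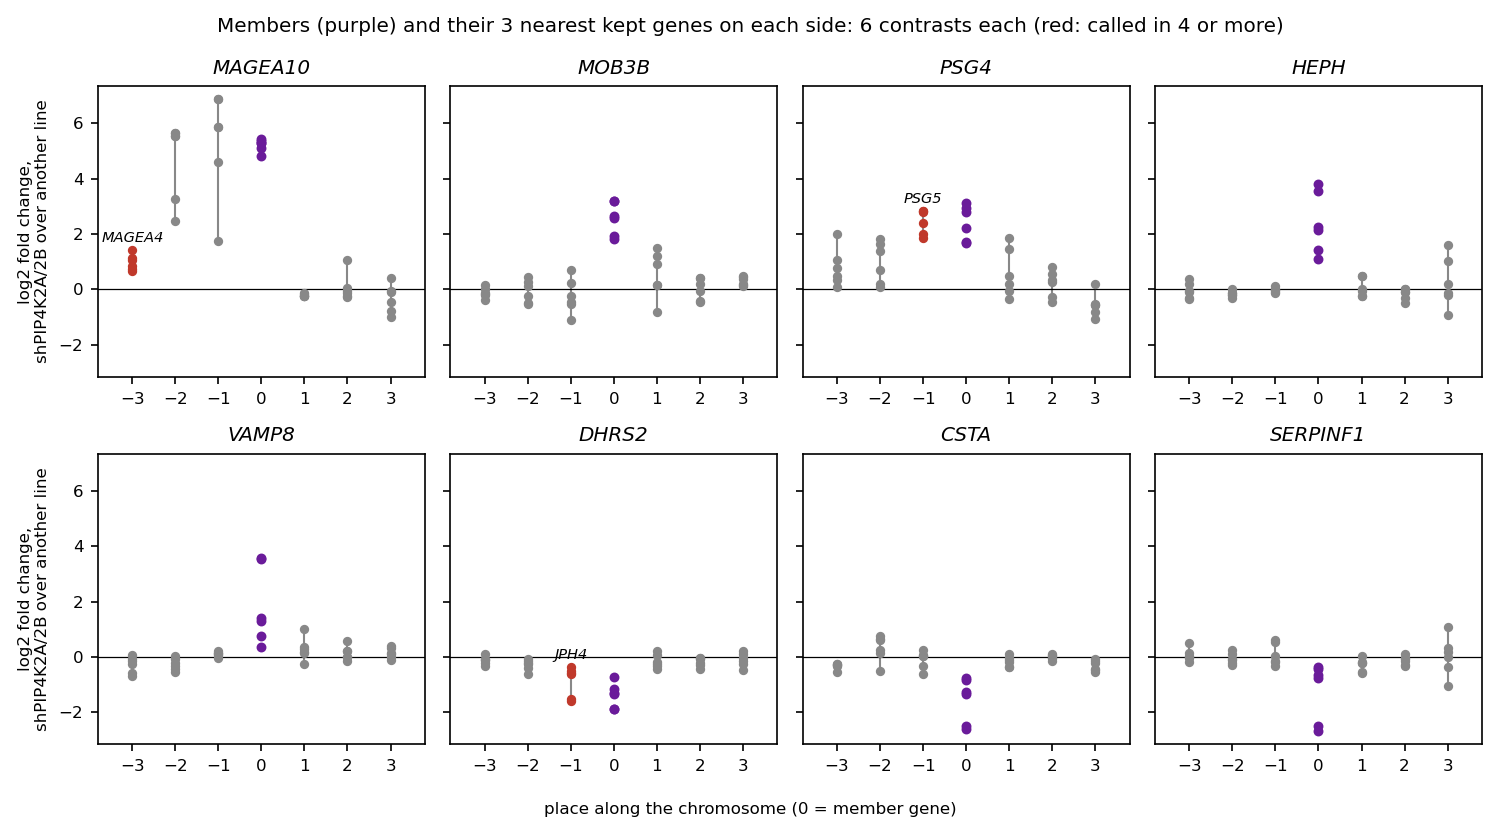
Log2 fold change of the double line over the 3 other lines, untreated and after UV (6 points per gene), for each member (purple, place 0) and the 3 nearest kept genes on each side. MAGEA4 and PSG5, called up in all 6 contrasts, and JPH4, called down in 5, are the neighbours called in 4 or more (red).

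In all, 48 genes flanked the 8 members. Of these, 3, 2 and 2 rose and 1, 0 and 5 fell untreated, and 5, 7 and 4 rose and 4, 2 and 5 fell after UV, in contrasts where 6.2% to 19.5% of all genes were called. Their median log2 fold change lay between -0.14 and 0.01. Against shPIP4K2A after UV, 9 were called with all libraries, 20 without shPIP4K2A replicate 2 and 4 without double-line replicate 1.

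Set beside the single lines, the genes fell into different patterns. MAGEA10 was 5.42 log2 units above empty vector in the double line after UV, whereas the shPIP4K2A and shPIP4K2B values were 0.32 and 0.61. HEPH was 1.42 above empty vector in the double line, with single-line values of -0.71 and -2.40. MOB3B was 2.59 above, with 0.66 and -0.62. For these 3 genes the double line was above the sum of the single-line values by 4.50, 4.53 and 2.55. PSG4, at 3.14 with single-line values of 1.43 and 0.18, was above its sum by 1.52. VAMP8, at 3.58 in the double line, fell short of its single-line sum of 5.01 by 1.43, and SERPINF1, at -2.48, did not reach its sum of -3.87. CSTA (-2.61, sum -3.11) lay nearer its sum. DHRS2 lay at -1.87 with a sum of -1.12 after UV, and at -1.89 with a sum of -1.93 untreated. All these values share the empty-vector libraries, and none of the differences was tested.

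**Figure D4:**
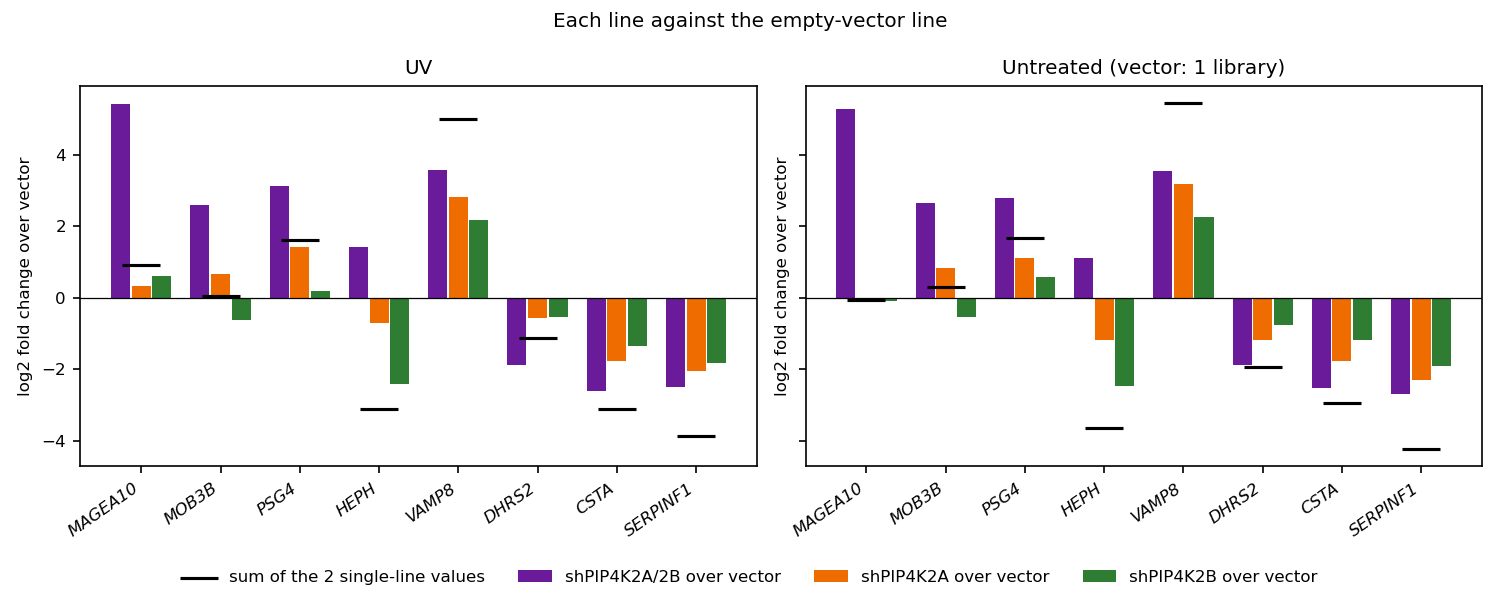
Log2 fold change of each knockdown line over empty vector, after UV (left) and untreated (right, 1 empty-vector library), with black marks at the sum of the single-line values. MAGEA10, HEPH, MOB3B and PSG4 stand above that sum in the double line, and VAMP8 stands below it. SERPINF1 and CSTA, low in the double line, also lie above their more negative sums. DHRS2 lies below its sum after UV and near it untreated.

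The response to UV was not used to choose the genes and was tested with edgeR in each line, on TMM-scaled counts with adjustment over all genes. In the double line 4 of 8 genes rose and 0 fell, where 19.1% of all genes rose and 35.2% were called. In the shPIP4K2A line 4 rose and 0 fell (16.6% of all genes rose, 30.6% called), in the shPIP4K2B line 4 rose and 0 fell (17.5% and 32.9%), and with empty vector 2 rose and 0 fell (8.67% and 18.5%). The shares of all genes that fell were 16.1%, 14%, 15.4% and 9.82% in the same order. Scaling to 76 cytosolic ribosomal protein genes moved the median of all genes to -0.85, -0.79, -0.9 and -0.7 in these lines in the same order, and with it the calls differed. Under that scaling 1 gene rose and 4 fell in the double line, 1 rose and 2 fell in shPIP4K2A, 0 rose and 5 fell in shPIP4K2B, and 0 rose and 3 fell with empty vector. Of all 22597 genes, that scaling called 14787, 14706, 15280 and 10923 in the same order, so nothing is read from these member counts.

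PSG4 had the largest response in the double line, a log2 fold change of 1.23 ± 0.144 (SE, adjusted p = 5.34e-05, edgeR), and rose by 1.22 ± 0.154 in the shPIP4K2A line (0.000128), 0.49 ± 0.165 in the shPIP4K2B line (0.0359) and 0.89 ± 0.217 with empty vector (0.0136). Under the ribosomal protein scaling PSG4 stayed above 0 in the double (0.36), shPIP4K2A (0.39) and empty-vector (0.17) lines and turned to -0.42 in the shPIP4K2B line, which was still 0.48 above the median of all genes. CSTA rose in all 4 lines, by 0.67, 0.76, 0.61 and 0.77 in the double, shPIP4K2A, shPIP4K2B and empty-vector lines (adjusted p = 0.0199, 0.00585, 0.0125 and 0.0143, edgeR), and under that scaling it was at -0.2, -0.04, -0.29 and 0.04. MAGEA10 rose by 0.55 in the double line (0.00368), 0.73 in shPIP4K2A (0.0296) and 1.10 in shPIP4K2B (0.00191), and under that scaling it was at -0.33, -0.08 and 0.19. In the double line this was 37.2 and 35.6 CPM after UV, against 25.0 and 24.8 untreated. VAMP8 rose in the double line (0.77, adjusted p = 0.01) and in shPIP4K2B (0.66, 0.036), and turned to -0.11 and -0.25 under that scaling. SERPINF1 rose in shPIP4K2A (0.61, 0.0283), where that scaling gave -0.21. MOB3B, HEPH and DHRS2 were called in no line with TMM scaling, with log2 values between -0.14 and 0.46. With ribosomal protein scaling MOB3B fell in all 4 lines (log2 -0.82 to -0.55, adjusted p of at most 0.0227, edgeR), as did DHRS2 (-0.99 to -0.38, at most 0.0368), and HEPH fell in the double, shPIP4K2B and empty-vector lines (-0.84 to -0.55, at most 0.00998). Relative to the shifted median of all genes these called values lay between -0.17 and 0.41. The same scaling called MAGEA10 lower in the double line (adjusted p = 0.0346) and PSG4 (0.0235) and SERPINF1 (-0.46, 0.0237) lower in shPIP4K2B. The UV libraries of the double line lay above both untreated ones for MAGEA10, VAMP8, PSG4, SERPINF1, CSTA, HEPH and MOB3B, 7 of 8 genes, beside 38.7% of all genes. The same held for 6 genes in the shPIP4K2A line (28.1%) and 5 in the shPIP4K2B line (35.9%). With empty vector, where 1 untreated library remained, both UV libraries lay above it for 6 genes and below it for DHRS2 (43.0% of all genes lay above).

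Several of these calls rest on single libraries, since each group has 2. In the double line CSTA lost its call without any of the 4 libraries (adjusted p 0.0632 to 0.0949), and VAMP8 without UV replicate 2 (0.0743) or untreated replicate 2 (0.0733). SERPINF1, at 0.55 with adjusted p = 0.0508 there, was called without UV replicate 2 (0.72, 0.0462). In the shPIP4K2A line MAGEA10 lost its call without UV replicate 1 (0.169) or untreated replicate 1 (0.213) or 2 (0.0615), and so did SERPINF1 (0.243, 0.18 and 0.0538). Without UV replicate 2 of that line DHRS2 (0.83, 7.69e-06) and HEPH (0.66, 0.00789) were called, and without UV replicate 1 VAMP8 was (0.6, 0.0265). In the shPIP4K2B line VAMP8 (0.0627 to 0.206) and PSG4 (0.071 to 0.195) lost their calls without any of the 4 libraries, and CSTA without UV replicate 2 (0.075) or untreated replicate 1 (0.127). With empty vector both calls were lost without UV replicate 2 (PSG4 0.0746, CSTA 0.0612). All these p are edgeR's, adjusted over all genes.

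The response in the double line was then set against that in each other line by an interaction term. Of the 8 genes, 0 differed from empty vector, 0 from shPIP4K2A and 0 from shPIP4K2B by edgeR, where 0.00885%, 0.0133% and 0% of all genes were called. At an unadjusted p under 0.05 there were 0, 1 and 2 members, and DESeq2 called 0 in each. The 3 were DHRS2 against shPIP4K2A (-0.59 ± 0.266), and MAGEA10 (-0.55 ± 0.247) and PSG4 (0.74 ± 0.218) against shPIP4K2B. PSG4 stood in the double line at 53.4 and 56.1 CPM after UV against 22.8 and 23.7 untreated, and in the shPIP4K2B line at 7.39 and 6.73 CPM after UV against 4.97 and 5.06 untreated. The adjusted p were 0.679 for DHRS2 and 1.0 for the other two.

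**Figure D5:**
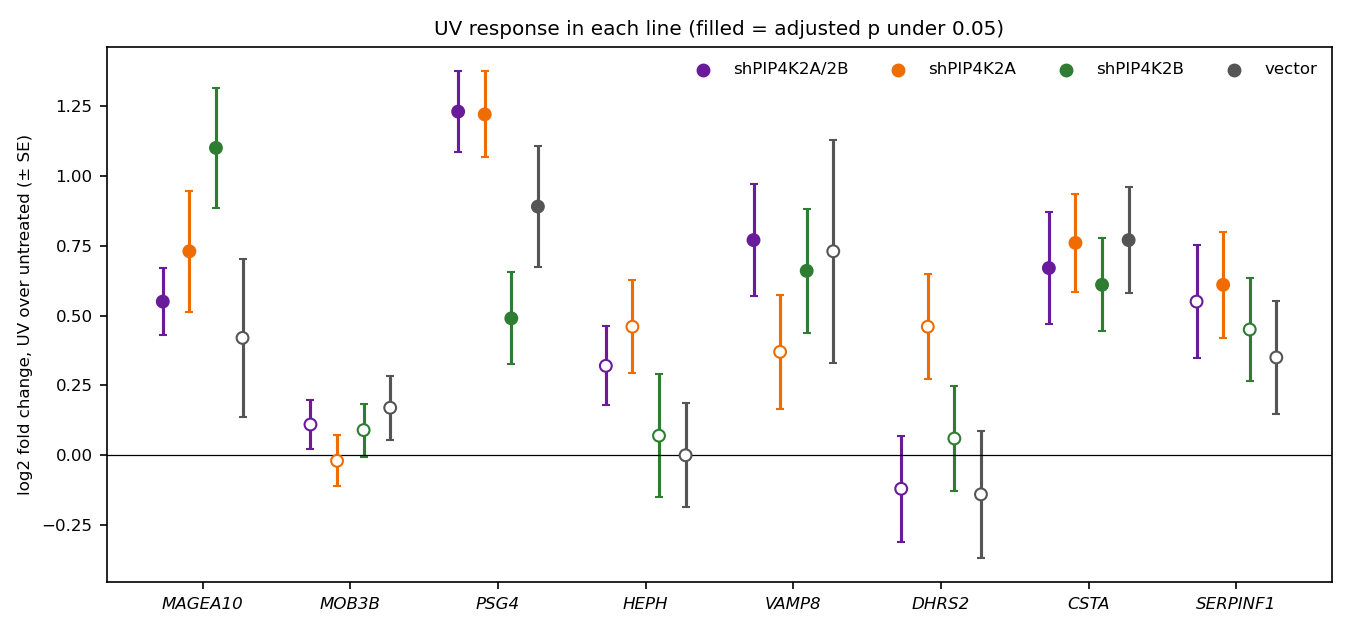
Log2 fold change of UV over untreated (± SE) for each gene in each line, with TMM scaling; filled points passed an adjusted p of 0.05. PSG4 and CSTA passed in all 4 lines, and MOB3B, HEPH and DHRS2 in none; under ribosomal protein scaling MOB3B and DHRS2 are called lower in all 4 lines and HEPH in 3, and PSG4 falls below 0 in the shPIP4K2B line and CSTA below 0 in the 3 knockdown lines.

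The deposited isoform-weighted length of DHRS2 also moved with UV. It was 1714 to 1793 bases in the 8 UV libraries, against 2016 to 2139 bases in the 7 untreated ones, with no overlap in any line. Of 12631 genes with enough counts, 3.2% had all UV libraries below all untreated ones and 2.79% above; DHRS2 was singled out for this after its values were seen. Per length, DHRS2 averaged 51.7 TPM in the double line after UV and 81.4 TPM untreated, although its CPM overlapped between the treatments. TPM carries no TMM correction, and in that line it was lower after UV for every member but PSG4. MOB3B went from 29.6 to 17.3 TPM and MAGEA10 from 11.2 to 7.63, although their CPM was higher after UV. The TPM values are therefore not read as a fall of DHRS2 with UV.

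The single lines were also compared with each other, with the caution that both had served as the other side when the genes were chosen. Untreated, 3 of 8 genes were lower in shPIP4K2B than in shPIP4K2A and 0 were higher by edgeR, where 1.71% of all genes were lower, 1.45% higher and 3.16% called. These were MOB3B (log2 -1.38 ± 0.0941, adjusted p = 5.06e-06), HEPH (-1.29 ± 0.193, 0.00283) and VAMP8 (-0.93 ± 0.217, 0.0369), the last lost without any of the 4 libraries (0.128 to 0.221). After UV, 3 were lower and 0 higher, where 6.6% of all genes were lower, 7.81% higher and 14.4% called: HEPH (-1.69 ± 0.19, 0.000263), MOB3B (-1.27 ± 0.0941, 9.77e-06) and PSG4 (-1.25 ± 0.155, 0.000451). VAMP8 was called after UV as well without shPIP4K2A replicate 1 (-0.88, 0.00512), and DHRS2, at 0.02 with all libraries, was called at 0.52 (0.00138) without that library and at -0.34 (0.0124) without replicate 2. The 4 genes called here with all libraries are among those higher in the double line, and MAGEA10, the fifth, was not called between the single lines (-0.08 ± 0.239 untreated and 0.29 ± 0.195 after UV). Since these libraries served in choosing the genes, nothing is read from these counts beside the shares of all genes.

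Set against all genes, 54 (0.239%) had their 4 double-line libraries above the other 11 and a log2 fold change over 1 in all 6 contrasts. MAGEA10 was first among them by its smallest fold change, MOB3B was first by CPM, and PSG4 and HEPH were also there, as were PSG5, PSG3 and PSG8. The next by CPM were LINC00862, MFAP5, CNTNAP2, COL8A1 and STRA6. The corresponding list of low genes held 32 (0.142%) and no member of the set. These counts describe the choice and support nothing.

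By Pearson correlation of log2 (CPM + 0.5) over 15 libraries, the genes most like each member were named from 14047 genes with a mean of at least 1 CPM. The libraries fall into 4 lines, so these values describe the pattern over lines, with no p. MAGEA10 was closest to the collagen genes COL4A4 and COL8A1 (both r = 0.981), with COL8A1 at a mean of 95.9 CPM in the double line and 35.1 in the other 11 libraries. PSG4 was closest to PDLIM1 (0.979) and PSG5 (0.964), HEPH to TMC5 (0.979) and LRRC32 (0.973), MOB3B to DNAJC18 (0.977) and WDR72 (0.967), and VAMP8 to FBXO2 (0.962) and EPB41L4B (0.96). Of the low genes, SERPINF1 was closest to LRRC15 (0.982) and KIF1A (0.98), CSTA to JPH4 (0.978) and AURKC (0.973), and DHRS2 to TMEM147-AS1 (0.957) and PEG3 (0.955).

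Markers of cell types in which some of these genes are usually found were read in the same libraries. Of 10 mesenchymal and bone markers, VIM, FN1, COL1A1 and SPARC were at 608 CPM or more in every library, RUNX2, SPP1 and ALPL were at 2.08 to 53.2 CPM, and COL1A2, SP7 and BGLAP were at 0 to 0.67 CPM. Trophoblast markers, relevant to PSG4, summed to 3.72 to 9.31 CPM in the double line and 4.25 to 9.97 in the other 11 libraries; 3 of 8 were kept, and CGA and HLA-G were at 0 in 13 of 15 libraries each. None of the 3 rose in any of the 6 double-line contrasts, and ERVW-1 fell after UV against all 3 other lines (log2 -1.18 to -1.51), each call lost without at least 1 library (adjusted p up to 0.247, edgeR). Keratinocyte markers, relevant to CSTA, summed to 138 to 258 CPM in the double line and 128 to 387 elsewhere, most of it SFN, and SPRR1B was at 0 in all 15. Simple epithelial markers summed to 367 to 681 CPM in the double line and 243 to 986 elsewhere. Of 5 kept, 2, 0 and 2 rose and 0 fell untreated, and 3, 1 and 2 rose and 1, 1 and 0 fell after UV. KRT8 rose against empty vector by 1.35 untreated and 1.67 after UV on the log2 scale, and CDH1 by 0.86 and 1.06; the untreated calls were lost without double-line replicate 2 (adjusted p = 0.0566 and 0.152, edgeR), and that of CDH1 also by DESeq2 (0.0569). After UV CLDN4 fell by 1.09 against empty vector but was the marker called up against shPIP4K2A. KRT18 fell by 0.64 against shPIP4K2A after UV, a call lost without shPIP4K2A replicate 1 (-0.19). KRT8 was at 243 to 476 CPM in the double line and at 212 to 612 in the single lines, and was not called against either. Blood markers summed to 1.14 to 1.49 CPM in the double line and 0.864 to 2.17 elsewhere. Their part in the results was not tested.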

How the data were processed

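RNA from 16 libraries was depleted of ribosomal RNA and sequenced with a directional kit, per the labels' protocols. STAR, SAMtools, RSEM and GRCh38 are named per the submitters' processing notes; neither the annotation release nor a strand setting was stated there, so a gene and an antisense or overlapping partner cannot be told apart. The deposited tables give, per gene, the expected count (estimated reads), TPM computed by the authors, and the isoform-weighted transcript length in bases. Symbols and positions came from the tables' identifiers matched to GENCODE 29 (58420 of 60666 genes).

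Expected counts were rounded. With 15 libraries, filterByExpr (minimum count 10) kept 22597 genes, which were fitted with TMM scaling and edgeR 4.0.16 quasi-likelihood tests over all groups (R 4.3.3, limma 3.58.1; Benjamini-Hochberg adjusted p of 0.05). The biological coefficient of variation was 11.3%. Other steps used Python 3.11.15, pandas 2.3.3, numpy 2.4.6 and matplotlib 3.10.9, and the fit was tested on simulated data. DESeq2 1.42.0, other scalings and filters, a replicate block, all 16 libraries and leaving out each library were tried as alternatives. Members, gene lists and tests were chosen with earlier results of these data known. Named beyond the members were up to 4 genes per list called in at least 1 double-line contrast, by the largest mean change; the 3 flanking genes called in 4 or more contrasts; the 2 genes most like each member; and the 5 most abundant genes as extreme as the members. A few further neighbours and list genes were named after their values were seen.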

Additional observations from a re-analysis of the deposited data

How the results depend on the processing

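The 48 log2 differences of the double line from the other lines kept their direction under every alternative tried. The per-length scale was not among these alternatives. On it, untreated SERPINF1 averaged 2.6 TPM in the double line, above the 2.08 of shPIP4K2A and the 2.43 of shPIP4K2B. Of the 48 differences, 3 moved by over 1.5-fold, all untreated against empty vector with all 16 libraries (VAMP8 2.36, CSTA -1.84, DHRS2 -1.14). In that setting the coefficient of variation was 41.9% (11.3% without that library): 0, 0, 0 and 0 members responded to UV in the double, shPIP4K2A, shPIP4K2B and empty-vector lines, 0 and 1 differed between shPIP4K2B and shPIP4K2A (untreated and after UV), and against empty vector, shPIP4K2A and shPIP4K2B the called list genes numbered 1, 0 and 4 untreated and 1, 0 and 4 after UV (18, 22, 28, 31, 32 and 37 without the set-aside library) and the flanking genes 0, 0, 1, 1, 0 and 1. Of all 22090 genes kept with 16 libraries, 267, 118, 173 and 2642 responded to UV in these lines, and 3 and 11 differed between the single lines. The double line differed in 45, 21 and 102 of them untreated and 64, 31 and 150 after UV, in the same order. CTSB, PSG9 and CDH1 changed sign untreated against empty vector, to 0.40, -0.73 and -0.15.

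Ribosomal protein scaling turned the UV response negative for MAGEA10 in the double (-0.33) and shPIP4K2A (-0.08) lines; VAMP8 in the double (-0.11) and shPIP4K2B (-0.25) lines; HEPH in the double (-0.55), shPIP4K2B (-0.84) and empty-vector (-0.72) lines; MOB3B in the same 3 (-0.77, -0.82 and -0.55); PSG4 in shPIP4K2B (-0.42); SERPINF1 in shPIP4K2A (-0.21) and shPIP4K2B (-0.46); CSTA in the double (-0.20), shPIP4K2A (-0.04) and shPIP4K2B (-0.29) lines; and DHRS2 in shPIP4K2A (-0.38) and shPIP4K2B (-0.85). Further responses turned negative with no call under either scaling. They were those of MAGEA10 with empty vector (-0.3), and of VAMP8 (-0.42) and HEPH (-0.37) in shPIP4K2A. SERPINF1 did so in the double (-0.32) and empty-vector (-0.37) lines. All of these follow the shift of the median of all genes given with the UV response. Ribosomal protein scaling also gave 4 flanking genes called untreated against shPIP4K2A, and 4 untreated and 5 after UV against shPIP4K2B. Of all 22597 genes, 1024, 2857 and 3472 were called there in the same order. With no filter on low counts, 1 member differed in UV response from shPIP4K2A, where 243 of all 40269 genes did. Untreated, 5 members differed between shPIP4K2B and shPIP4K2A (1077 of all genes), and 4 flanking genes were called against shPIP4K2A (1982 of all genes). The cause was not tested.

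Leaving out 1 library at a time gave 2 to 3, 2 to 6, 1 to 2 and 0 to 2 members responding to UV in the double, shPIP4K2A, shPIP4K2B and empty-vector lines, 0 to 0, 0 to 1 and 0 to 0 differing in response from empty vector, shPIP4K2A and shPIP4K2B, and 2 to 2 untreated and 3 to 5 after UV between shPIP4K2B and shPIP4K2A, where DHRS2 ranged from -0.34 to 0.52. Called list genes ranged over 8 to 8, 11 to 16 and 19 to 24 untreated and 15 to 18, 21 to 51 and 21 to 26 after UV, and flanking genes over 4 to 4, 2 to 2 and 3 to 5 untreated and 5 to 8, 4 to 20 and 4 to 5 after UV, with the 51 and 20 without shPIP4K2A UV replicate 2.

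Replicate numbers did not pair the libraries in a consistent way: deviations of same-numbered libraries correlated at -0.441 to 0.606 over 21 pairs of groups (median -0.013). Correlations of this size in both directions mean that deviations shared between some groups are not excluded. The replicate block called HEPH in the shPIP4K2A UV response (0.46, adjusted p = 0.0357, edgeR) and SERPINF1 in that of the double line (0.55, 0.049). It ended 10 of 131 calls of other named genes, all with adjusted p of 0.0502 to 0.06: untreated against empty vector CTSB, STX6, PAGE5, LATS2 and CDH1, untreated against shPIP4K2A SERPING1, untreated against shPIP4K2B CDH1, after UV against empty vector ERVW-1, and after UV against shPIP4K2B EPCAM and KRT7. DESeq2 ended 12 of the 131, ribosomal protein scaling 13, no filter on low counts 10 and RLE scaling 2; 56 were lost without at least 1 library, and 122 with all 16 libraries. Expected counts per library were low for CSTA in the double line (31 to 46), MAGEA10 in the other lines (15 to 44), HEPH in shPIP4K2B (28 to 36) and VAMP8 with empty vector (23 to 46), which limits the precision there.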

Other observations

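The set-aside library, empty-vector untreated replicate 1, was left out of the values of the report and used only in the setting with all 16 libraries. It held 2 expected counts of MAGEA10, 12 of VAMP8, 18 of HEPH, 94 of MOB3B, 23 of PSG4, 66 of SERPINF1, 1 of CSTA and 374 of DHRS2, in a library of 1.28 M counts.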
